A study of Mus musculus with 4 samples.

Results

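The genes described here are 10 members of the bone morphogenetic protein (BMP) pathway, out of 24421 genes listed in the count table. They were taken by name: the ligands Bmp2, Bmp4 and Bmp6, the receptors Bmpr1a and Bmpr2, the antagonist Grem1 and the target genes Id1, Id2, Id3 and Smad6. All 10 were listed and all 10 passed the filter on low counts, which kept 13103 genes. The RNA came from superficial-zone cartilage of the medial femoral condyle of mice, collected 8 weeks after an operation. The 4 libraries belong to 2 C57BL/6J mice, called M04 and M05, each of which gave 1 knee after sham surgery and 1 after surgical destabilization of the medial meniscus (DMM). Cutting the ligament of the meniscus leaves the joint unstable, and osteoarthritis follows. Each group thus holds 2 libraries, 1 knee from each mouse. The labels of all 4 samples give the genotype as wild type, while the series' design text calls both samples of M05 knockout without naming a gene. A difference between M05 and M04 is therefore given as one between 2 animals. The free text of the 2 sham samples mentions a DMM operation, whereas their titles and treatment labels say sham, and these labels were followed.

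BMPs are secreted growth factors of the TGF-beta family. A BMP dimer binds a complex of type I receptors, such as Bmpr1a, and type II receptors, such as Bmpr2. The active type I receptor phosphorylates Smad1, Smad5 and Smad9, which join Smad4 and switch on target genes in the nucleus. Secreted antagonists such as gremlin (Grem1) hold the ligand outside the cell. In joints, BMP signalling is known for its part in cartilage formation, chondrocyte maturation and bone formation, and Grem1 is known as an antagonist made by chondrocytes and by stromal cells of bone marrow.

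Total counts ran from 12712425 to 19336628 per library, and every library held much RNA of other cells. Haemoglobin rows took 25.7% to 35.3% of the counts. All 10 chondrocyte markers, among them Col2a1, Acan and Sox9, and all 6 superficial-zone markers, among them Prg4, were counted in every library. Their summed levels were lowest in the sham library of M05. The chondrocyte markers summed to 4763 CPM (counts scaled to a common library depth, normalised by TMM) in the sham and 5625 CPM in the DMM knee of M04, and to 1207 and 4159 CPM in those of M05. Summed markers of endothelium lay between 263 and 348 CPM, of osteoblasts between 1499 and 2015 CPM, and of marrow stroma and adipocytes between 806 and 983 CPM. In such mixed tissue, fewer cells of a type and less RNA per cell cannot be told apart.

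The promoters of 3 target genes are shown because the pathway ends there, at Smad complexes on DNA. They are the 250 bases before the start of each gene, from RefSeq on GRCm38.p6, a build other than the GRCm39 of the deposited tables. The positions are chr12:25096093-25096342 on the minus strand for Id2, chr4:136143572-136143821 on the plus strand for Id3 and chr9:64022060-64022309 on the minus strand for Smad6. Capitals mark GGCGCC or GGAGCC, the GC-rich letters known to bind Smad1 and Smad5, and GTCTG, the letters known to bind Smad4, each searched on both strands.
Id2: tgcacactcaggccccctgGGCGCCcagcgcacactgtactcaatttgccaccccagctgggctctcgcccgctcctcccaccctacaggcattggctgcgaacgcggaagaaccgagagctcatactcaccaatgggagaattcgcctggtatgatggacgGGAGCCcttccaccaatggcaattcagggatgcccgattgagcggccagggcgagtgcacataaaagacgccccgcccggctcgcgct
Id3: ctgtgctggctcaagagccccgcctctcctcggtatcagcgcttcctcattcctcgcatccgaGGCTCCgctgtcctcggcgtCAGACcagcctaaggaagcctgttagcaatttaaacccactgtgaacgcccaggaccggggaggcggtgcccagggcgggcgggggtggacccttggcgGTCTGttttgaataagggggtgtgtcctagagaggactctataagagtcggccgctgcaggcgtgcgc
Smad6: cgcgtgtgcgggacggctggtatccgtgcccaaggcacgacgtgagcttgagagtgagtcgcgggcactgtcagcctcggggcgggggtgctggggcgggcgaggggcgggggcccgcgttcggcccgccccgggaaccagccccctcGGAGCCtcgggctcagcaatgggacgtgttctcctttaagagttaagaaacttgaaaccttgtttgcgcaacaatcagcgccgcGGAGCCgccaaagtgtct
The Id2 window held 1 GGCGCC and 1 GGAGCC, the Id3 window 1 GGAGCC and 2 GTCTG, and the Smad6 window 2 GGAGCC. In none of these 3 windows did the marked motifs overlap. Of the 10 genes 8 were in the promoter table, and Id1 and Bmp2 were not. GGCGCC was found in 4 of these 8 (Bmpr1a, Bmpr2, Grem1 and Id2) and in 9.59% of all 32851 promoters. GGAGCC was found in 4 (Bmp4, Id2, Id3 and Smad6) against 26% of all, and GTCTG in 3 (Bmp6, Grem1 and Id3) against 42.2%. The 8 windows held 62.8% (Id2 and Id3) to 78.8% (Bmpr1a) G and C. The shares among promoters of like G and C content were not counted. Such a match describes the letters and is not a binding site.

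Per transcript length, the Id genes stood far above the other members. They encode helix-loop-helix proteins without a DNA-binding region, which hold back other transcription factors, and are classical BMP targets. The deposited FPKM (fragments scaled for transcript length and library depth) averaged 43.0 for Id3, 22.5 for Id2 and 17.8 for Id1 over the 4 libraries. The lowest FPKM of Id3 (32.5) lay above the highest of Id2 (28.1), whereas the ranges of Id2 and Id1 overlapped. Next came Bmp6 at a mean of 2.78 FPKM, Bmp4 at 1.80, Grem1 at 1.34, Bmp2 at 1.31, Smad6 at 0.932, Bmpr1a at 0.876 and Bmpr2 at 0.769. Between Id1 and Bmp6 the ranges were apart, with at least 10.8 FPKM for Id1 and at most 4.06 for Bmp6. They were also apart between Bmp2 (at least 1.15) and Smad6 (at most 1.09), and all other neighbours in this order had overlapping ranges.

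The first question was how the pathway stands in DMM knees against sham knees. None of the 10 genes passed the threshold, an adjusted p of 0.05 in edgeR's quasi-likelihood test with the mouse as a block, while 0.649% of all 13103 genes did. At an unadjusted p under 0.05 there were 2 members, Grem1 and Id1, beside 5.2% of all genes. DESeq2 and limma called 0 members as well, with 1 and 2 members at an unadjusted p under 0.05. The fitted log2 fold changes were positive for 7 of the 10 genes, beside 6270 of all 13103. Their median was 0.25, against -0.01 over all genes tested. The fit leaves 1 residual degree of freedom, and a p that misses the threshold does not show that the knees were alike.

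**Figure D1:**
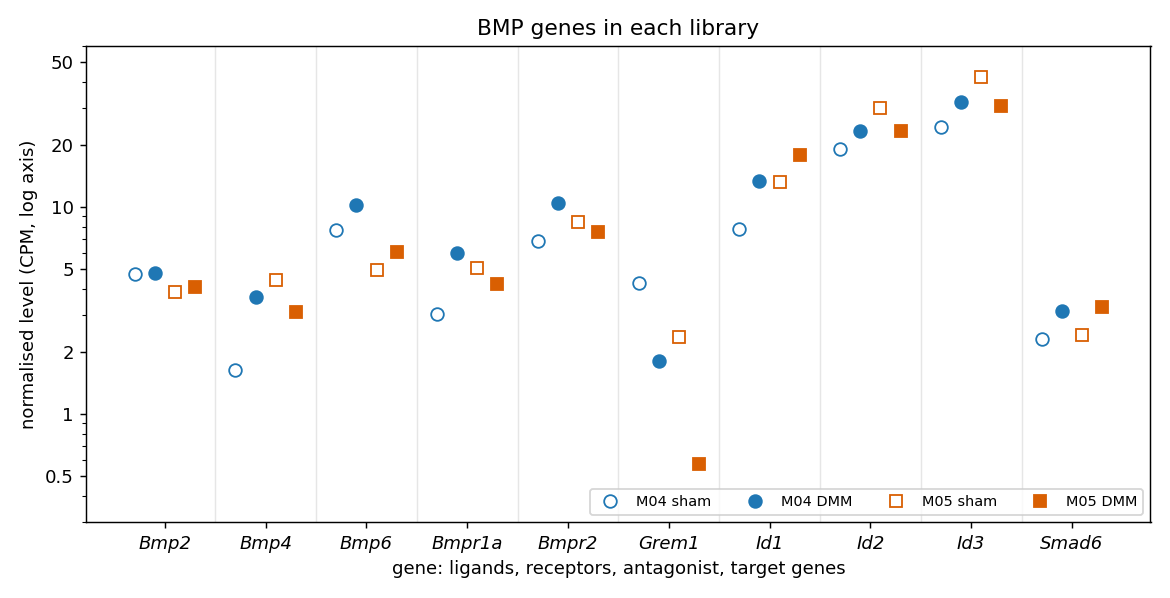
Normalised level of each gene (CPM, log axis) in the 4 libraries, with open symbols for sham, filled symbols for DMM, circles for M04 and squares for M05. Grem1 is lower in the DMM knee of both mice, at 1.81 and 0.575 CPM against 4.30 and 2.35 CPM in sham knees, and Id1 and Smad6 are higher in both.

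Grem1 encodes gremlin, which binds BMP2 and BMP4 and keeps them from their receptors. Sham and DMM knee held 58 and 27 counts in M04, and 40 and 7 counts in M05. As levels these were 4.30 and 1.81 CPM in M04 and 2.35 and 0.575 CPM in M05. Both DMM knees thus lay below both sham knees, as they did for 12.4% of all genes tested. The fitted log2 fold change was -1.57 (SE 0.59), the lowest of the 10, with an unadjusted p of 0.00828 and an adjusted p of 0.460 in edgeR. On deposited FPKM the groups overlapped, since the DMM knee of M04 (1.21) lay above the sham knee of M05 (0.980), with 2.81 in the sham knee of M04 and 0.346 in the DMM knee of M05. The log2 ratio of CPM to FPKM varied by 0.68 between libraries for this gene, the most among the 10. Leaving out 1 library moved the fold change between -2.50 (without the DMM library of M04) and -0.87 (without the DMM library of M05). These fits lack the mouse term. Their negative sign follows from both DMM knees lying below both sham knees, so it adds no evidence.

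The share of Grem1 among the counts of Grem1 and the 3 ligands does not depend on the scaling between libraries. It was chosen after the values were seen. It also falls where the ligands rise. Summed, the 3 ligands had 14.1 and 18.7 CPM in the sham and DMM knee of M04, and 13.3 CPM in each knee of M05. Bmp6 held 54.7% and 54.6% of the ligand counts in M04, and 37.4% and 45.7% in M05. In M04 it was 23.4% in the sham knee (95% exact binomial interval 18.3 to 29.2) and 8.79% in the DMM knee (5.88 to 12.5). In M05 it was 15.0% in the sham knee (10.9 to 19.8) and 4.14% in the DMM knee (1.68 to 8.35). The intervals of the 2 knees did not overlap in either mouse, but they cover counting error only, and reads without molecular identifiers are not independent molecules.

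**Figure D2:**
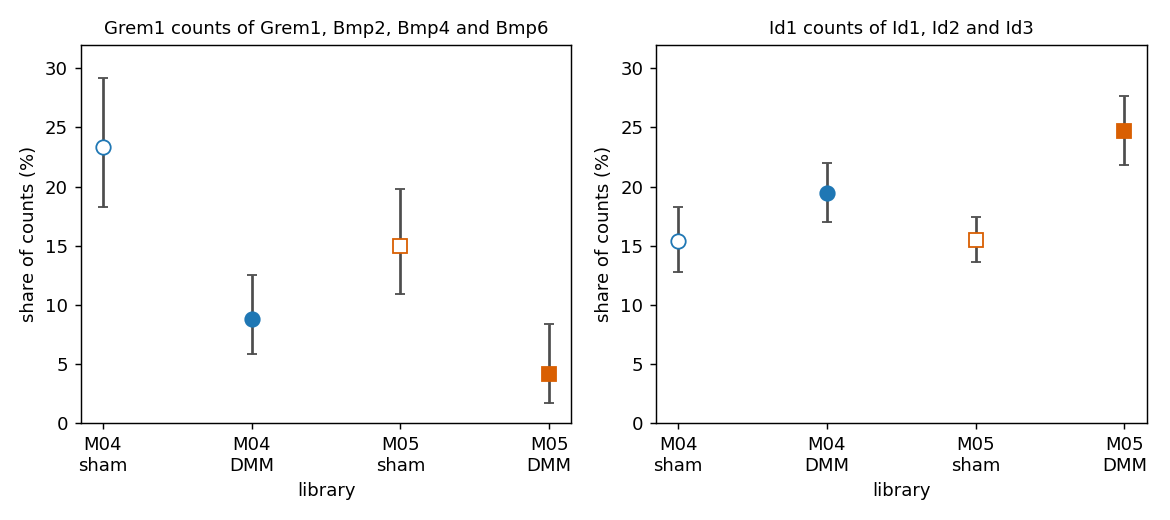
Share (%) of Grem1 among the counts of Grem1, Bmp2, Bmp4 and Bmp6 (left) and of Id1 among those of Id1, Id2 and Id3 (right) in each library, with bars for 95% exact binomial intervals. The Grem1 share is lower in the DMM knee of each mouse, 8.79% against 23.4% and 4.14% against 15.0%, and the Id1 share is higher there.

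Bmp6, a ligand also known from liver endothelium as the signal for hepcidin, had the highest level of the 3 ligands per length. Its levels were 7.70 CPM in the sham and 10.2 CPM in the DMM knee of M04, and 4.98 and 6.08 CPM in M05. The DMM knee was the higher in each mouse, but the DMM knee of M05 lay below the sham knee of M04. The fold change was 0.35 (SE 0.32, edgeR adjusted p = 1.0). On FPKM the groups just missed each other, with 4.06 and 2.63 in DMM against 2.61 and 1.81 in sham knees. Exons of Bmp6 overlap those of Txndc5 on the opposite strand in the GENCODE annotation of GRCm38, and those of Bmp4 and Bmpr1a overlap Gm15217 and Gm17110. Whether the counting used strand is not given in the sources used here, so reads of these pairs may be mixed.

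Bmp2, a ligand that drives chondrocyte maturation and bone formation, was the most even of the 3. It had 4.74 and 4.81 CPM in the sham and DMM knee of M04 and 3.87 and 4.11 CPM in M05, a fold change of 0.05 (SE 0.40). Bmp4, its close relative, had 1.64 and 3.68 CPM in M04 but 4.46 and 3.12 CPM in M05. The sham knee of M04, with 22.1 counts, was the lowest of the 4 and the sham knee of M05 the highest, so the groups overlapped and the fold change was 0.29 (SE 0.48). Without the sham library of M04 the fold change of Bmp4 was -0.39.

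Both receptors had a higher level in the DMM knee of M04 and a slightly lower one in that of M05. Bmpr1a, the type I receptor that chondrocytes need for growth and survival, had 3.04 CPM in the sham and 6.02 CPM in the DMM knee of M04, and 5.10 and 4.27 CPM in M05. Bmpr2, the type II receptor best known for its mutations in pulmonary arterial hypertension, had 6.89 and 10.4 CPM in M04 and 8.44 and 7.55 CPM in M05. For both genes the DMM knee of M04 was the highest and the sham knee of M04 the lowest library. The fold changes were 0.36 (SE 0.40) for Bmpr1a and 0.22 (SE 0.30) for Bmpr2, neither past the threshold. That of Bmpr1a ranged from 0.016 without the sham library of M04 to 0.76 without the sham library of M05.

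Among the target genes, Id1 and Smad6 were higher in both DMM knees than in both sham knees. These 2 of 10 members compare with 13.2% of all genes tested. Id1 had 7.85 and 13.4 CPM in the sham and DMM knee of M04 and 13.3 and 17.7 CPM in M05. The gap between the groups was narrow, since the DMM knee of M04 and the sham knee of M05 were nearly level. The fold change of Id1 was 0.59 (SE 0.24), with an unadjusted p of 0.0165 and an adjusted p of 0.633 in edgeR. It ranged from 0.23 without the sham library of M04 to 0.98 without the sham library of M05. Smad6, an inhibitory Smad that BMP signalling induces and that dampens the receptors in turn, had 2.30 and 3.14 CPM in M04 and 2.40 and 3.28 CPM in M05. It rests on 31 to 47 counts per library, and its fold change was 0.45 (SE 0.51).

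Id2 and Id3 did not follow Id1. Id2 had 19.0 and 23.3 CPM in the sham and DMM knee of M04 and 30.1 and 23.4 CPM in M05. Id3 had 24.2 and 32.2 CPM in M04 and 42.4 and 30.8 CPM in M05. In both genes the sham knees were the lowest and the highest library, with the DMM knees between them. The fold changes were -0.04 for Id2 (SE 0.19) and -0.03 for Id3 (SE 0.18). Within the Id family, the share of Id1 went from 15.4% (95% interval 12.8 to 18.3) in the sham to 19.4% (17.0 to 22.0) in the DMM knee of M04. In M05 it went from 15.5% (13.6 to 17.4) to 24.7% (21.8 to 27.7). The share was higher in the DMM knee of both mice, with intervals that overlapped in M04 and were apart in M05. It too was chosen after the values were seen.

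The knees of each mouse were then compared within the animal. In M04, 9 of the 10 genes had a DMM to sham ratio above 0 on the log2 scale, beside 6658 of all 13103 tested. In M05 only 4 had, beside 6366 of all. Bmp2, Bmp6, Id1 and Smad6 were above 0 in both mice, as were 23.2% of all genes tested, and Grem1 was below 0 in both, as were 23.8%. The other 5 (Bmp4, Bmpr1a, Bmpr2, Id2 and Id3) were above 0 in M04 and below 0 in M05, a pattern of 27.6% of all genes. The median ratio of the 10 genes was 0.42 in M04 and -0.20 in M05, while over all genes it was 0.01 and -0.01.

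**Figure D3:**
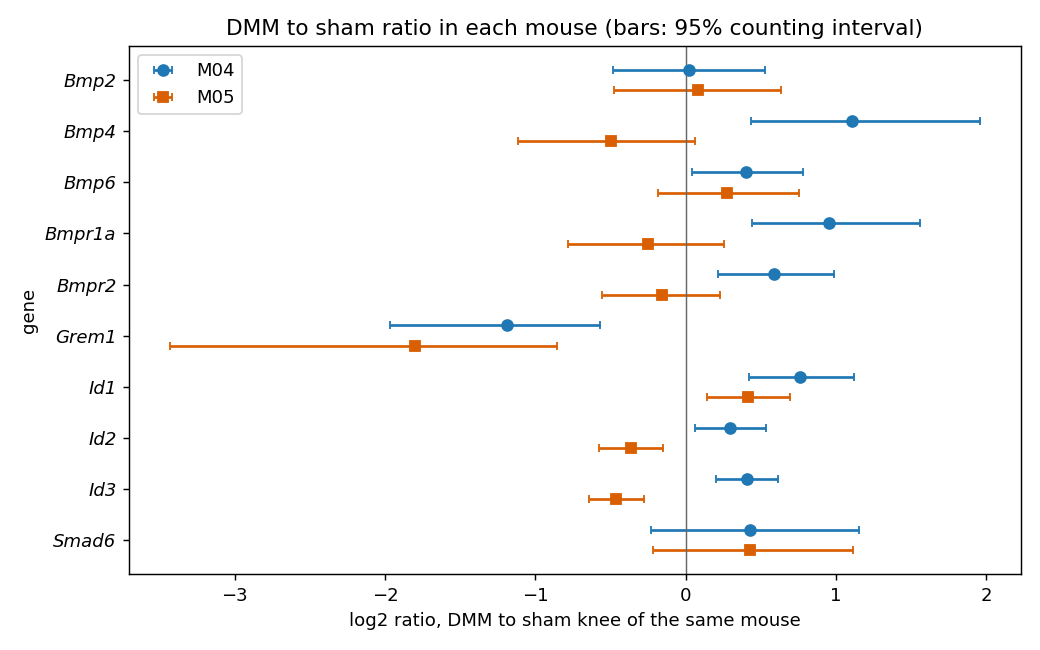
Log2 ratio of the DMM to the sham knee in M04 (circles) and M05 (squares) for each gene, from normalised CPM with a prior count of 2. Bars are 95% intervals for counting error only. Id2 and Id3 lie above 0 in M04 and below 0 in M05 with intervals clear of 0, and Grem1 lies below 0 in both mice.

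The ratios of Grem1 were -1.19 in M04 (95% counting interval -1.97 to -0.57) and -1.80 in M05 (-3.43 to -0.86). Those of Id1 were 0.76 (0.42 to 1.12) and 0.42 (0.14 to 0.70). Only these 2 members had intervals clear of 0 on the same side in both mice. The share of all genes with such intervals was not counted, and intervals for counting error narrow as counts rise. Smad6 had nearly equal ratios in the mice, 0.43 in each, but intervals that reach from -0.23 to 1.16 and from -0.22 to 1.11. Bmp4 went from 1.11 in M04 (0.44 to 1.96) to -0.50 in M05 (-1.12 to 0.07), and Bmpr1a from 0.96 (0.44 to 1.56) to -0.25 (-0.78 to 0.26). The sum of skeletal muscle markers had ratios of opposite sign too, with 150 and 402 CPM in the sham and DMM knee of M04 and 532 and 163 CPM in M05. All 8 muscle markers were counted in every library, and their part in the ratios of the BMP genes was not tested.

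Marker lists of cells in which Grem1 or Id1 is known to be made had the following values beside them. The marrow stroma and adipocyte markers had summed log2 ratios of 0.08 in M04 and -0.19 in M05. Most of this sum was Cxcl12, a defining gene of marrow stroma, with 694 and 684 CPM in M04 and 663 and 598 CPM in M05. The markers did not all move alike. Their median log2 ratio was 0.19 in M04 and -0.38 in M05, and of the 8 markers 5 were above 0 in M04 and 1 in M05. The endothelial markers, from a cell type in which Id1 is known to be high, had summed log2 ratios of -0.14 and 0.22. Vwf held the largest part of this sum, with 172 and 144 CPM in M04 and 126 and 158 CPM in M05. The median ratios of the 9 markers were -0.001 and 0.02, with 4 above 0 in M04 and 5 in M05. The chondrocyte markers had summed log2 ratios of 0.24 and 1.78, and 5 of the 10 were higher in DMM knees past the threshold, beside 83 of all 13103 genes tested. None of these 3 lists had a member at 0 in any library, and their part in the Grem1 and Id1 values was not tested.

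Between the animals, 341 genes (2.6%) passed the threshold for M05 against M04, and 0 of the 10 members did by edgeR or limma. DESeq2, whose filter on mean count left adjusted p-values for only 1672 of 13103 genes here, gave none to any of the 10. Of these 10, 0 had an unadjusted p under 0.05 there. In edgeR, 4 members had an unadjusted p under 0.05, Bmp6, Grem1, Id1 and Id3, beside 14.3% of all genes. This count was 3 with RLE scaling, 1 with the surgery left out of the model and 2 in limma on either FPKM scale. The fold changes were -0.69 for Bmp6 (SE 0.32, edgeR adjusted p = 0.276) and -1.18 for Grem1 (SE 0.59, adjusted p = 0.334). They were 0.58 for Id1 (SE 0.24, adjusted p = 0.211) and 0.37 for Id3 (SE 0.18, adjusted p = 0.302). Without 1 library the sizes moved, while these 4 signs did not change. For Bmp6 the sign was fixed, since both knees of M05 lay below both knees of M04. Grem1 ranged from -2.38 without the sham library of M05 to -0.26 without the sham library of M04. Id1 ranged from 0.22 without the sham library of M04 to 0.97 without the DMM library of M04, and Id3 from 0.13 without the sham library of M05 to 0.59 without either DMM library. Bmp2 and Bmp6 lay lower in both knees of M05 than in both knees of M04, as did 22.8% of all genes. Id2 lay higher in both knees of M05, as did 22.5%, but by a narrow margin, with 23.4 CPM in the DMM knee of M05 and 23.3 CPM in that of M04.

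**Figure D4:**
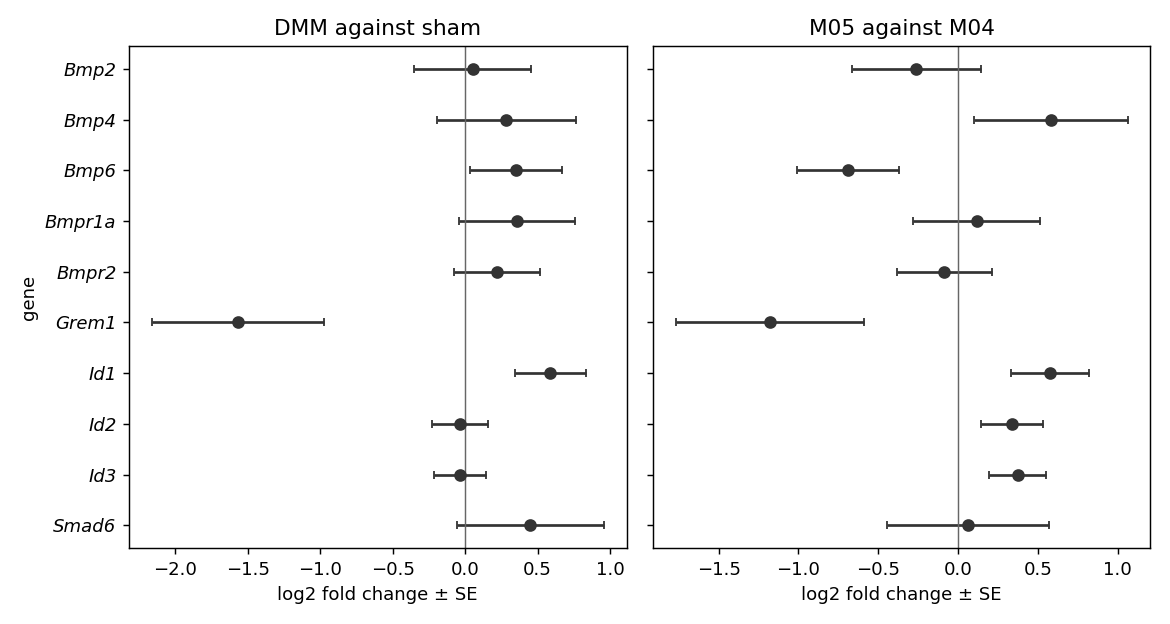
Fitted log2 fold change ± SE of each gene for DMM against sham (left) and M05 against M04 (right), from edgeR with both terms in the model. Grem1 is the lowest in both panels, at -1.57 and -1.18, and no gene passed the threshold in either.

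Of 49 other genes of the pathway, 35 were tested, and 1 passed the threshold for DMM against sham, with the higher level in DMM knees, beside 0.649% of all genes. Their median fold change was 0.22, with 25 above 0 and 10 below, beside 6270 above and 6833 below among all genes tested. The gene that passed was Nbl1, which encodes a secreted BMP antagonist of the same DAN family as gremlin. Nbl1 had 14.5 and 29.0 CPM in the sham and DMM knee of M04 and 11.3 and 25.8 CPM in M05, so that both DMM knees lay well above both sham knees. It rose by 1.10 on the log2 scale (SE 0.21, edgeR adjusted p = 7.01e-05), and the mice had log2 ratios of 0.99 and 1.19. Summed fibroblast markers were higher in the same knees, with 274 and 437 CPM in M04 and 216 and 406 CPM in M05. Of this sum Dcn alone made 204 and 348 CPM in M04 and 146 and 325 CPM in M05. All 7 markers were counted in every library. Ratios were above 0 in both mice for 5 of them and below 0 in both for 2 (Pi16 and Pdgfra). Higher in DMM knees past the threshold were 3 of the 7, beside 83 of all 13103 genes tested. They were Dpt, Clec3b and Dcn, with fold changes of 2.09, 2.19 and 0.96 on the log2 scale. Fibroblast markers were not alone in this. Ratios were above 0 in both mice for 10 of 10 chondrocyte and 7 of 8 osteoblast markers. Of these, 5 chondrocyte and 2 osteoblast markers were higher past the threshold. Ratios above 0 in both mice were fewer for endothelium (2 of 9) and for marrow stroma and adipocytes (1 of 8). The part of any of these lists in the Nbl1 values was not tested. Its adjusted p was 0.146 in DESeq2, 0.638 without the mouse term and 0.968, 1.0 and 0.650 without the DMM library of M04, the sham library of M05 and the DMM library of M05. Grem1 and Nbl1 thus lay on opposite sides, Grem1 lower and Nbl1 higher in the DMM knee of each mouse.

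**Figure D5:**
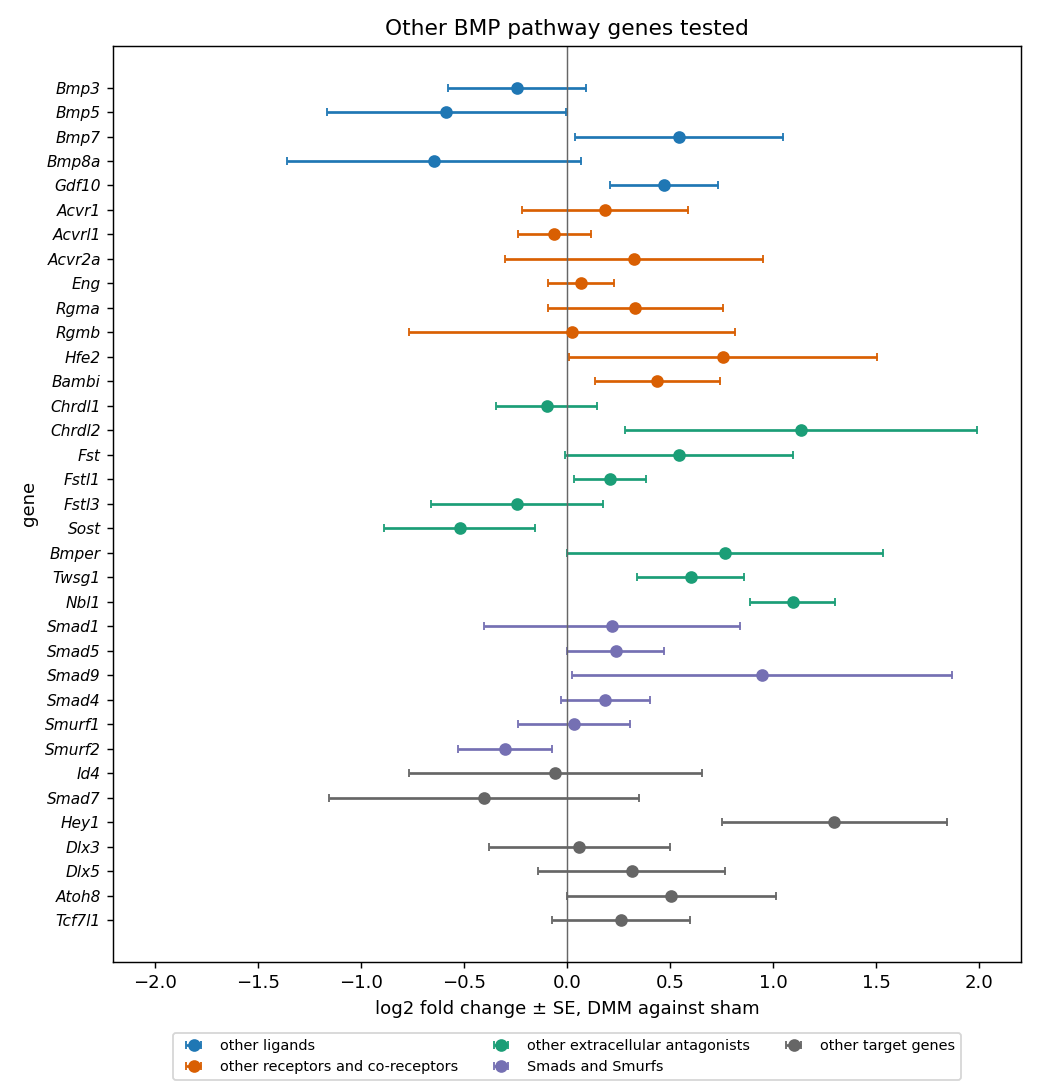
Fitted log2 fold change ± SE for DMM against sham of the 35 other BMP pathway genes tested, coloured by role. Nbl1, at 1.10 (SE 0.21), is the one past the threshold.

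The remaining extracellular antagonists did not pass. Fstl1, a follistatin-like secreted protein, had a fold change of 0.21 and Chrdl1, a chordin-like antagonist, of -0.10. Of 9 antagonists tested, 8 had a ratio above 0 in M04 and 5 in M05. Over all 13103 genes tested these counts were 6658 and 6366. Among 5 other ligands tested, Gdf10 (0.47), Bmp3 (-0.24) and Bmp5 (-0.59) had the highest levels, and none passed. Gdf10 was the one gene of the list past the threshold between the mice, lower in M05 by a log2 fold change of -0.85 (SE 0.26, edgeR adjusted p = 0.0493). That call was lost with RLE scaling, where the adjusted p was 0.0816, and with the surgery left out of the model, where it was 0.220. Leaving out the sham library of M04, the DMM library of M04 or the sham library of M05 gave adjusted p-values of 0.775, 0.669 and 0.413.

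Of 8 other receptors and co-receptors tested, none passed and 7 had fold changes above 0, beside 6270 of all 13103 genes. Eng, the endothelial co-receptor endoglin, had 0.07 and Acvrl1, the type I receptor of endothelium, -0.06, while Acvr1, a type I receptor of cartilage and bone, had 0.18. Eng and Acvrl1 had the highest FPKM of these, at means of 19.9 and 9.93, against 0.876 for Bmpr1a. Among 6 Smads and Smurfs tested none passed, with fold changes of 0.19 for Smad4, the common partner, 0.24 for Smad5, a BMP-regulated Smad, and -0.30 for Smurf2, a ubiquitin ligase that removes Smads and receptors. Among 7 other target genes none passed, with 0.31 for Dlx5 and 0.06 for Dlx3, homeobox genes of bone formation, and 0.26 for Tcf7l1. At an unadjusted p under 0.05 there were 3 genes of the list, Nbl1, Twsg1 and Hey1, beside 5.2% of all genes tested. Twsg1 and Hey1 are named after their values were seen. Bmp10, Gdf2, Gdf7 and Sostdc1 had 0 counts in all libraries, which allows up to 0.176 CPM in the deepest and 0.246 CPM in the shallowest library.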

How the data were processed

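Messenger RNA was measured in 4 libraries. Per the labels' protocols, poly(A) RNA was selected and sequenced as single-end reads. The submitters' processing notes name GRCm39 (mm39) as the build, the aligner and counter being not given in the sources used here. The deposited table holds estimated counts per gene, of which 9.21% to 10.9% per library were not whole. It lists each library in 2 columns with equal values, counted once. The deposited FPKM values, which the authors scaled for length and depth, served for levels between genes and for alternatives.

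Estimated counts were rounded and tested with edgeR 4.0.16 (R 4.3.3): filterByExpr, TMM, and a robust quasi-likelihood fit with mouse and surgery as terms. P-values were adjusted by Benjamini-Hochberg over all genes, and a standard error is |log2 fold change| over the root of F. The labels pair the knees by animal, and deviations of same-mouse libraries correlated at 0.126. For 83.0% of genes the prior degrees of freedom were infinite, so their spread came from the trend across genes. Every member had an infinite value or one of at least 8290 (Id3), so its SE and p-value rest almost wholly on that trend. They do not measure the gene's own spread between the knees. P-values reach no further than these knees. Ratios within a mouse came from CPM with a prior count of 2 and have no test. Their 95% intervals are exact binomial. Alternatives used DESeq2 1.42.0, limma 3.58.1 on log2(FPKM + 1) and log2(FPKM + 0.1), other filters and scalings, and leaving out each library. The steps were tested on simulated data.

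The members and lists were chosen with earlier results of these data known. Named were all members, and of 49 other pathway genes those past the threshold and, in each role, the 3 with the highest mean FPKM. Hfe2 and Epb4.2 stand in the table under older names of Hjv and Epb42. The marker Ahsp was not matched.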

Additional observations from a re-analysis of the deposited data

Results flagged for a closer look

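Id2 and Id3 had DMM to sham ratios of opposite sign in the 2 mice, with counting intervals clear of 0 on both sides. For Id2 the log2 ratio was 0.30 in M04 (95% counting interval 0.06 to 0.54) and -0.36 in M05 (-0.58 to -0.15). For Id3 it was 0.41 in M04 (0.20 to 0.62) and -0.46 in M05 (-0.65 to -0.28). Each ratio is of 1 library to 1 library, and the model with both terms leaves no freedom to test an interaction, so the difference was not tested. By sign alone, 27.6% of all genes tested had a ratio above 0 in M04 and below 0 in M05. The share that also had intervals clear of 0 was not counted. Such intervals are narrower for genes of higher counts, such as Id2 and Id3.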

How the results depend on the processing

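For DMM against sham, the count of 85 genes past the threshold became 0 with no replicate block (the mouse term left out), 35 with RLE scaling, 23 with haemoglobin rows left out, 13 in DESeq2 and 0 in limma on either FPKM scale, and 0 to 121 without 1 library. For M05 against M04, the count of 341 became 0 with no replicate block (the surgery left out), 186, 103, 72, 0 and 0 in the same order, and 0 to 331 without 1 library. The cause was not tested. The number of the 10 BMP genes past the threshold was 0 under every setting that gave them an adjusted p, which DESeq2 did not do for M05 against M04. With a mean of at least 5 CPM required, 5 of them remained to be tested.

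Some fold changes of members changed sign, and no member had passed in either comparison. Nbl1 and Gdf10, named because they had passed, kept their signs. Without 1 library, the fold changes for DMM against sham ranged from -0.088 to 0.21 for Bmp2, -0.39 to 1.06 for Bmp4, -0.053 to 0.71 for Bmp6, -0.019 to 0.44 for Bmpr2, -0.36 to 0.30 for Id2 and -0.43 to 0.38 for Id3. For M05 against M04 they ranged from -0.34 to 0.62 for Bmpr1a, -0.37 to 0.21 for Bmpr2 and -0.18 to 0.30 for Smad6, which also stood at -8e-04 in limma on log2(FPKM + 1). Fits without a library lack the second term. All 30 ratios in each mouse under another prior count, scaling or FPKM stayed within their counting intervals. Another prior count or scaling uses the same counts and shifts the ratios little beside these intervals, so this says little about them. Grem1 in M05, for instance, went from -1.80 to -1.97 with a prior count of 0.5. Nbl1 kept its call in 5 of 9 other settings and in 1 of 4 fits without a library. Gdf10 kept its call in 2 of 8 and in 1 of 4, and DESeq2 gave it no adjusted p. Counts of 7 to 153 per library for Grem1, Smad6, the ligands and Bmpr1a limit what can be seen for them.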

Other observations

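Some other pathway genes, picked here after their values were seen, differed in sign between the mice as well. Smad7, the inhibitory Smad that acts on both TGF-beta and BMP receptors, had 2.22 and 0.468 CPM in the sham and DMM knee of M04 and 1.06 and 2.38 CPM in M05. Its log2 ratios were -1.96 in M04 (95% counting interval -3.68 to -1.03) and 1.08 in M05 (0.28 to 2.11), the reverse of the order of Id2 and Id3. Smad6, the other inhibitory Smad, had 0.43 in both mice. Acvr1 had -0.56 (-1.09 to -0.07) and 0.93 (0.42 to 1.51). Sost, which encodes the osteocyte protein sclerostin, had 0.22 (-0.22 to 0.69) and -1.29 (-1.90 to -0.79). Hfe2, the co-receptor hemojuvelin, known from skeletal muscle, had 4 and 45 counts in M04 and 41 and 12 counts in M05. The sum of muscle markers was high in the same 2 libraries, and its part in the Hfe2 values was not tested.

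Among the 3 ligands the share of counts taken by Bmp4 differed most between the sham knees. In M04 it was 11.6% in the sham knee (95% exact binomial interval 7.40 to 17.0) and 19.6% in the DMM knee (15.2 to 24.8). In M05 it was 33.5% in the sham knee (27.4 to 40.0) and 23.5% in the DMM knee (17.2 to 30.7). The sham knees were thus the lowest and the highest, with intervals that did not overlap, while those of the DMM knees did.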
